A study of Anguilla anguilla with 12 samples.

Results

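The European eel genome annotation holds 99 genes, of 31061 in the count tables, that carry the name of a histone. They were taken by their product name: every gene whose product starts as that of histone H1, H2A, H2B, H3 or H4 was kept. Products named as a methyltransferase, deacetylase, acetyltransferase, demethylase or chaperone were left out. By the same names, 14 were linker histones H1, 20 were H2A, 19 were H2B, 15 were H3 and 16 were H4. Among the variants, 7 were H3.3, 4 were H2A.Z or H2A.V, 1 was H2A.X and 1 was CENP-A, the histone H3 of centromeres. The remaining 2 genes are not histones although their product names start with one: hinfp, a transcription factor of H4 genes, and haspin, a kinase of histone H3.

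Histones H2A, H2B, H3 and H4 form the protein core around which DNA is wound, and linker histone H1 sits on the DNA where it enters and leaves that core. The replication-dependent genes lie in arrays, are transcribed while DNA is copied, and give mRNAs that end in a stem-loop in place of a poly(A) tail. Replacement variants such as H3.3 and H2A.Z come from separate genes with polyadenylated mRNAs and are put into chromatin at any time of the cell cycle. A fish egg lays down histone proteins and mRNAs for the rapid divisions of the embryo, before its own genome is transcribed. The protocol selected mRNA by its poly(A) tail, and more of an mRNA cannot be told apart from a longer tail on it here.

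RNA was sequenced from 4 groups of 3 libraries. Per the paper, the oocyte and egg libraries of a treatment came from the same 3 feminized females. No label ties a library to a female, and the main tests were unpaired. The females had been fed estradiol as elvers, had swum through a simulated migration and had carried an implant of methyltestosterone and estradiol. They were brought to maturity with weekly injections of carp pituitary extract. Oocytes were taken with a cannula just before injection of DHP, in full 17α,20β-dihydroxy-4-pregnen-3-one, (libraries 3, 7 and 11) or of progesterone, P, (libraries 1, 5 and 9), and 20 oocytes from stage 3 onwards made a sample. Eggs were stripped after injection of DHP (libraries 4, 8 and 12) or of P (libraries 2, 6 and 10), each at 2 mg per kg body weight, from females checked for egg release between 11 and 18 h later. DHP is made from P in the follicle and differs from it in 1 extra hydroxyl and in a ketone reduced to a second hydroxyl. Every female had thus received the pituitary extract and the earlier steroids, the controls included, and the oocyte group of each treatment was sampled before its own steroid.

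Libraries held 6612347 to 9903122 counted fragments. Genes of the oocyte, such as those of the egg envelope, were present in every group, with 0 to 2 of 31 listed genes at 0 counts in a group. Their summed level was 26671 to 43418 normalized counts in oocyte libraries and 11017 to 21050.3 in egg libraries. Of 29 tested, 11 were lower after DHP and 19 after P (median log2 fold change -2.11 and -1.79), where 6.22% and 22.7% of all genes were lower. In each treatment 1 of the 29 was higher, where 7.35% and 17.9% of all genes were. It was ddx4, at 4.35 ± 0.50 after DHP and 4.85 ± 0.41 after P (edgeR, adjusted p = 0.00184 and 2.54e-05). Follicle cell genes, a list of 18, summed to 4901 to 13737 normalized counts in the oocyte libraries and 487 to 2663 in the egg libraries. Of the 18, 11 were at 0 in all 3 libraries of eggs after P, with fshr, lhcgr, foxl2a and star among them. Of these 11, 2 were at 0 in oocytes before P as well. In eggs after DHP 3 of the 18 were at 0 in all 3 libraries. Smooth muscle genes, a list of 7, summed to 679 to 5222 in the oocyte libraries and 4.88 to 162 in the egg libraries, with the highest sum in library 3. Blood genes, a list of 10, summed to 90.8 to 304 and 57.5 to 99.96. Normalized counts are fragments per gene after TMM scaling to a common library size, and they are not scaled for gene length.

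Nearly all histone fragments came from genes outside the arrays. Runs of at least 3 of the 99 genes with gaps of at most 50000 bases form 9 arrays on chromosomes 2, 8, 10, 16 and 17 of fAngAng1.pri, and 69 of the genes lie in them. These 69 genes held 0.430% of the fragments of all 99, with 19 of them at 0 counts in all 12 libraries and none above 972 counts in all. The other 30 genes held 99.6%, and 16 of these reached 1000 counts over the 12 libraries. Among these 30 are the neighbouring H2A and H2B 3 genes of chromosome 9, described below, a run too short to count as an array here. That pair alone made 32.6 to 58.8% of the histone fragments of a library. All 4 core histones together with H1 were annotated in the array on chromosome 17 (6737975 to 6767283, 13 genes), which held 1328 counts, and in one on chromosome 2 (75171429 to 75200714, 11 genes), which held 248. H4 had no gene outside this low range: the 16 H4 genes summed to 497 counts, and the 15 H3 genes to 362. Copies of array histone genes are often near-identical, in which case reads can be split between them or lost; the sequences were not compared here. The poly(A) selection also bears on array genes, so their low counts do not measure how much replication-dependent histone mRNA the oocytes held.

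**Figure D1:**
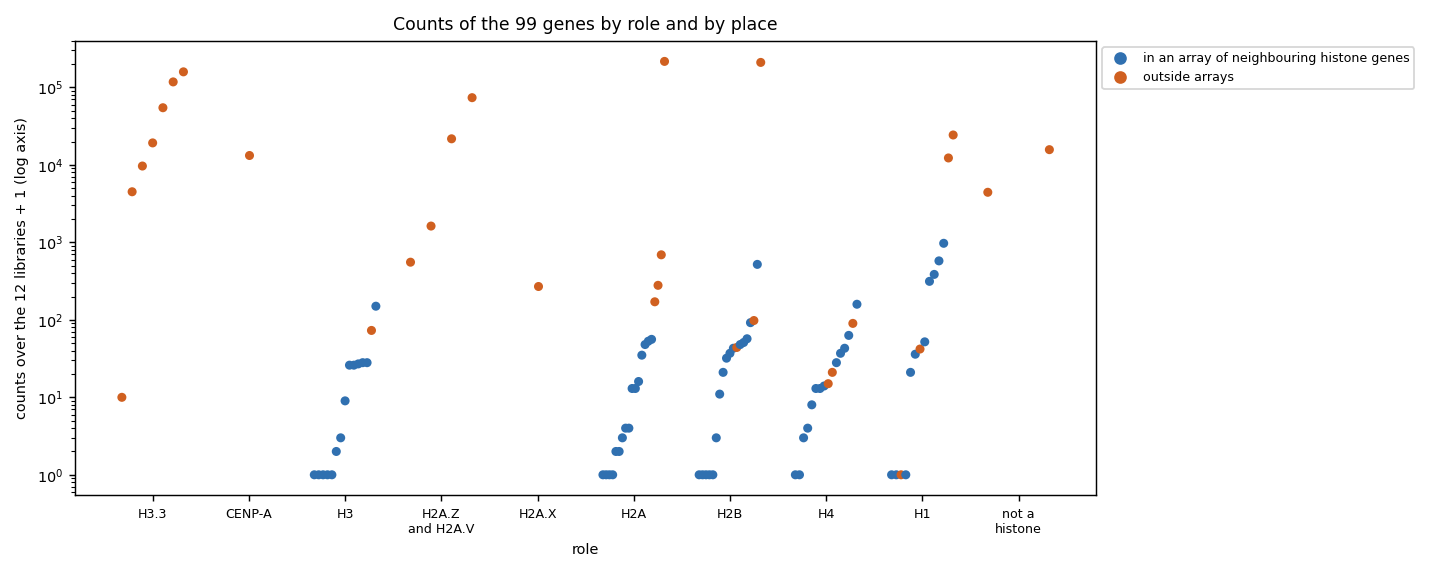
Counts over the 12 libraries, plus 1 and on a log axis, of each of the 99 genes (points), set out by role and coloured by place. The 69 array genes (blue) lie at 972 counts or below, while the genes with over 1000 counts are all outside arrays (orange), and counts are not scaled for gene length.

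Between oocyte and egg, genes for the variants H3.3A, H2A.Z and CENP-A rose and the linker histone gene H1.0-B fell after either steroid. In these bulk samples fewer cells of a type and less RNA per cell cannot be told apart. After DHP, 6 of 26 histone-named genes tested were higher in eggs, where 7.35% of all 15149 genes tested were, and 2 were lower, where 6.22% of all genes were (edgeR, adjusted p under 0.01). After P, 9 of 28 were higher, against 17.9% of all 15348 genes, and 7 were lower, against 22.7%. Among those lower, LOC118237177, LOC118235553 and LOC118216310 had at most 2 counts in eggs after P. They passed the count filter only through the oocyte libraries, so they could not have been called higher. All 8 genes called after DHP were called after P in the same direction, and 8 more were called after P alone. Groups did not overlap for 17 of the 26 genes after DHP, against 50.7% of all genes, and for 21 of the 28 after P, against 64.8%. The median log2 fold change was -0.40 over the 26 genes after DHP and -0.01 over the 28 after P, beside -0.20 and -0.26 over all genes tested. The value was positive for 12 of the 26 and 14 of the 28 genes.

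The count after DHP, 8 of 26 where 13.6% of all genes were called, depended on the libraries and the threshold. It was 1 of 29 genes tested without library 7 (1.2% of all genes called), 2 of 29 without library 11 (2.31%) and 0 of 31 without library 12 (0.746%), and 9 of 29 without library 8 (10.5%), while the log2 fold changes of the 8 genes kept their direction. At an adjusted p under 0.05 it was 14 (34.0% of all genes), and with DESeq2 13 (29.5%). With the libraries paired as a replicate block it was 7 higher and 1 lower after DHP (9.12% and 8.92%) and 16 in all after P (48.6%), and after P it was 12 without library 6 (28.2%) to 15 without library 9 (29.8%). Scaling by total counts in place of TMM moved the median of all genes to -0.80 after DHP and -1.01 after P, and the calls after P then split into 6 higher and 10 lower, where 8.44% and 33.9% of all genes were called. Fold changes below are relative to the TMM scale.

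**Figure D2:**
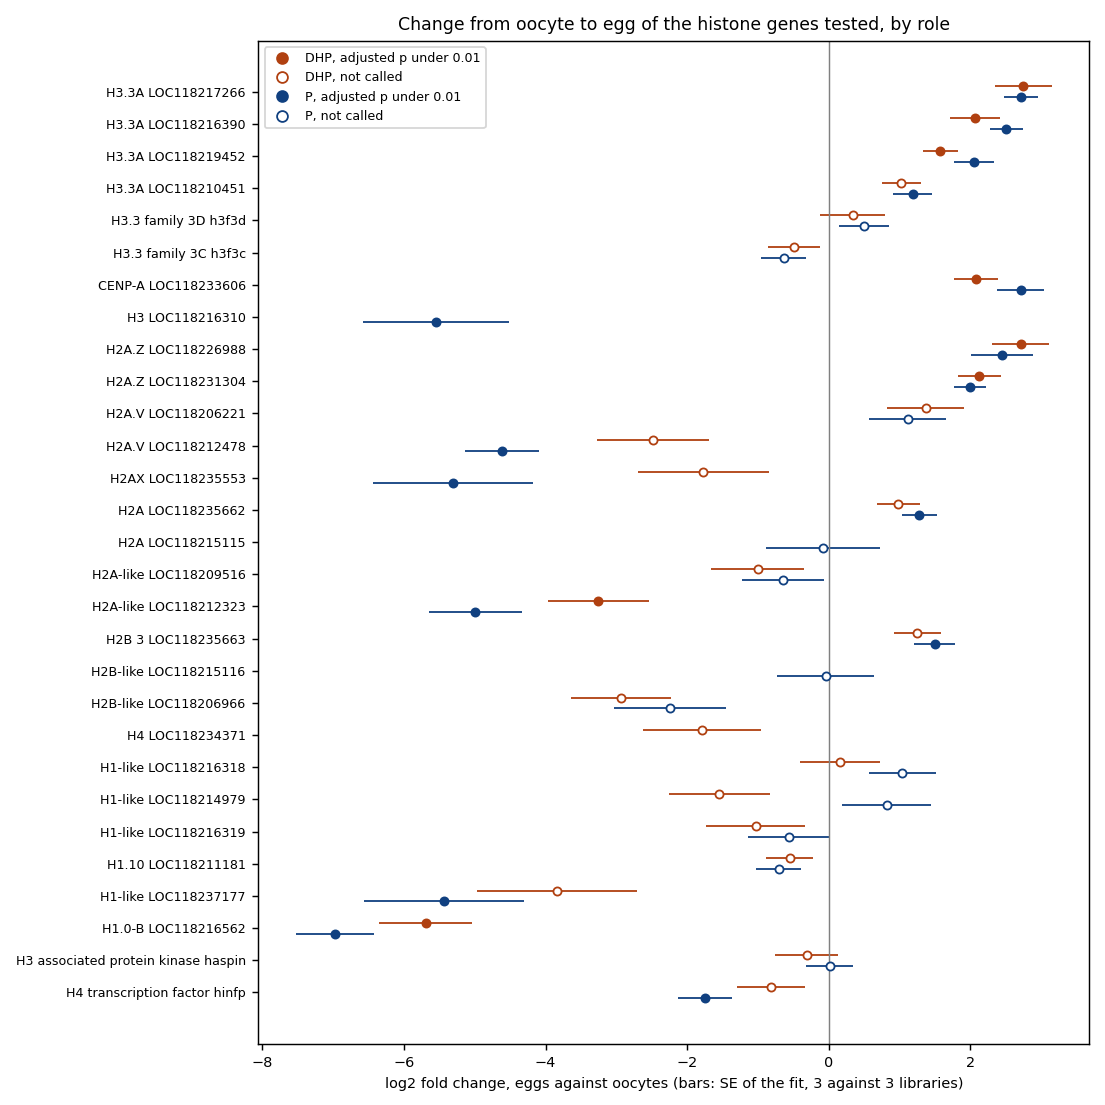
Log2 fold change of eggs against oocytes (horizontal axis) after DHP (orange) and after P (blue), ordered by role. Shown are the 29 histone-named genes tested in at least 1 of both comparisons. Bars are the SE derived from the test of 3 against 3 libraries. Filled points passed an adjusted p under 0.01: H3.3A, CENP-A and H2A.Z genes stand to the right, and H1.0-B stands farthest to the left.

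Histone H3.3, the replacement form of H3, is encoded by 7 of the genes, of which 3 rose after both steroids and 1 more after P. LOC118219452 (H3.3A, chromosome 2, 57693916 to 57696770) had 8679, 7148 and 8071 normalized counts in oocytes before DHP and 22554, 24795 and 27455 in eggs after DHP. Before P it had 6143, 6207 and 3680.4, and in eggs after P 17824, 26727 and 22805. Every egg library stood above every oocyte library, and the gene rose by a log2 fold change of 1.57 ± 0.25 after DHP (edgeR, adjusted p = 0.00334) and 2.05 ± 0.28 after P (edgeR, adjusted p = 0.00026). Without library 7, 11 or 12 the call after DHP was lost (edgeR, adjusted p 0.0158 to 0.0172).

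A second H3.3A gene, LOC118216390 (chromosome 17, 31533437 to 31535656), had 5985, 3947 and 2515 normalized counts in oocytes before DHP against 20546, 19953 and 14241 in the eggs. In the P females it had 3610.0, 3216 and 3679 in oocytes and 17161, 19921 and 23523 in eggs. The oocytes before DHP were uneven, with library 3 high, yet no oocyte library reached an egg library. Its log2 fold changes were 2.06 ± 0.35 (edgeR, adjusted p = 0.00395) and 2.51 ± 0.23 (edgeR, adjusted p = 3.45e-05). Here the call after DHP was lost without library 4, 7, 11 or 12 (edgeR, adjusted p 0.0119 to 0.0214).

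LOC118217266, the third H3.3A gene (chromosome 17, 6308995 to 6312762), rose the most of the family. It had 1904, 1538 and 718 normalized counts in oocytes before DHP and 10523, 11859 and 7000.2 in eggs after DHP, a log2 fold change of 2.75 ± 0.40 (edgeR, adjusted p = 0.00273). The P libraries held 1645, 1337 and 1177 in oocytes and 8315, 9398 and 9913 in eggs, a log2 fold change of 2.71 ± 0.24 (edgeR, adjusted p = 2.92e-05). The groups stood apart in both treatments, and the call after DHP was lost without library 7 or 12 (edgeR, adjusted p = 0.0137 and 0.0102).

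Not all H3.3 genes moved alike. LOC118210451 (H3.3A, chromosome 12, 30368697 to 30372555) went from 1160.0, 943 and 1313 normalized counts in oocytes to 2348, 2035 and 3518 in eggs after P, a rise of 1.19 ± 0.28 on the log2 scale (edgeR, adjusted p = 0.00457). After DHP it had 1082, 922 and 1131 in oocytes and 2164, 2231 and 2325 in eggs, and the log2 fold change of 1.03 ± 0.28 did not pass the threshold (edgeR, adjusted p = 0.0206), although the groups did not overlap. DESeq2 (adjusted p = 0.00265) and 1 edgeR fit of all 12 libraries (adjusted p = 0.00544) called it higher after DHP. The call after P was lost when the libraries were scaled by total counts (0.44, edgeR, adjusted p = 0.173) and without library 1, 5 or 10 (log2 fold change 0.95 to 1.17, adjusted p 0.0192 to 0.0208). This gene shares 3859 bases with h3f3c (chromosome 12, 30363445 to 30372562), also an H3.3 gene, and the strand setting used in counting, not given in the sources used here, leaves the values of both uncertain. h3f3c itself had log2 fold changes of -0.49 ± 0.37 after DHP and -0.64 ± 0.32 after P, with adjusted p of 0.327 and 0.111 (edgeR), and it was called lower after P when scaled by total counts (-1.37, adjusted p = 0.00602). The gene h3f3d (chromosome 2, 43941390 to 43945532) had 0.34 ± 0.46 and 0.50 ± 0.35, with adjusted p of 0.597 and 0.253 (edgeR). Over the 6 H3.3 genes tested the median log2 fold change was 1.30 after DHP and 1.62 after P, and the seventh gene had 9 counts over all libraries.

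Both genes of H2A.Z, the variant found at gene starts, rose after each steroid. LOC118231304 (chromosome 7, 25808929 to 25810858) had 3429, 2163 and 2160.4 normalized counts in oocytes before DHP and 13658, 12528 and 9502 in eggs after DHP, which is a log2 fold change of 2.13 ± 0.31 (edgeR, adjusted p = 0.00256). It had 2833, 2914 and 2547 in oocytes before P and 9892, 10735 and 12879 in eggs after P, at 1.99 ± 0.22 (edgeR, adjusted p = 8.80e-05). The 3 oocyte libraries before P lay close together, and all egg libraries lay well above them. Without library 7, 11 or 12 the call after DHP was lost (edgeR, adjusted p 0.0106 to 0.0148).

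The other H2A.Z gene, LOC118226988 (chromosome 5, 63119640 to 63123475), varied more between females. Its oocyte libraries held 669.9, 318 and 633 normalized counts before DHP and 542, 438 and 1088 before P. Eggs held 4311, 2525 and 4331 after DHP and 2302, 3294 and 5833 after P, where library 10, from the pair whose oocytes in library 9 were also the highest of their group, was the highest. The log2 fold changes were 2.71 ± 0.40 (edgeR, adjusted p = 0.00289) and 2.45 ± 0.44 (edgeR, adjusted p = 0.0011). Again the call after DHP was lost without library 7, 11 or 12 (edgeR, adjusted p 0.0122 to 0.0137).

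Neither gene of H2A.V, a close relative of H2A.Z, rose past the threshold, and 1 of them fell after P. LOC118212478 (chromosome 14, 14243957 to 14253282) fell after P, from 238, 201 and 227 normalized counts to 4.60, 7.31 and 15.8, by a log2 fold change of -4.62 ± 0.53 (edgeR, adjusted p = 9.89e-05). After DHP it went from 111, 293 and 194 to 58.3, 49.98 and 4.38, with library 12 far below the other egg libraries, and -2.48 ± 0.79 did not pass (edgeR, adjusted p = 0.0365). DESeq2 called it lower after DHP, at -2.40 (adjusted p = 0.00495). The second H2A.V gene, LOC118206221, with 554 counts in all, had 1.37 ± 0.54 and 1.12 ± 0.54 (edgeR, adjusted p = 0.076 and 0.106).

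**Figure D3:**
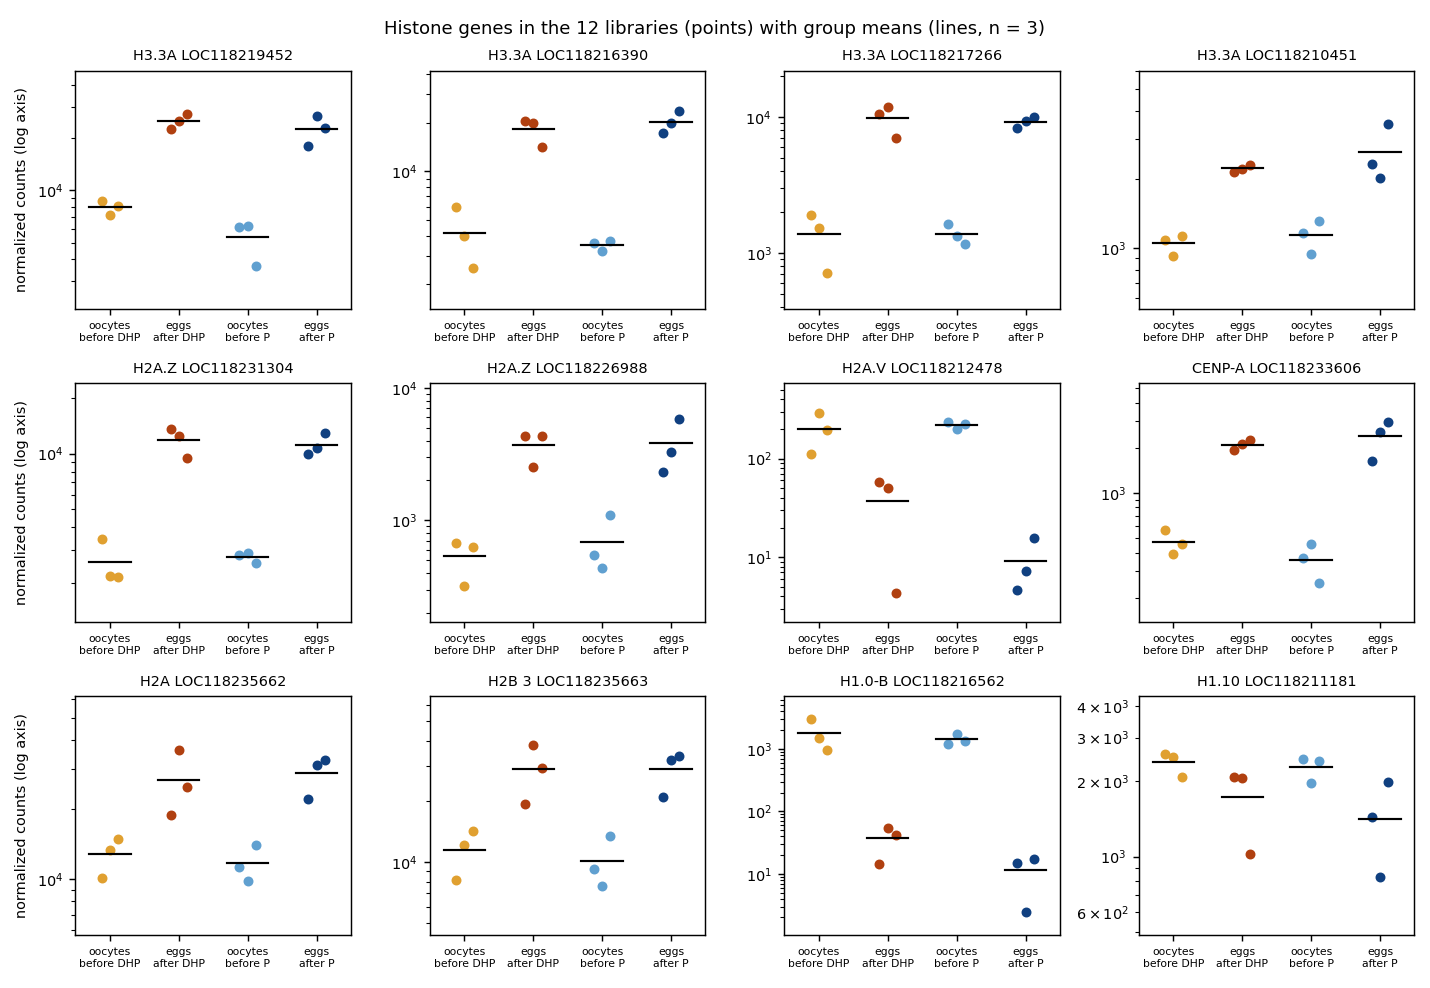
Normalized counts (log axis) of 12 histone genes in each of the 12 libraries (points, in order of library number within a group) with group means (lines, n = 3). Egg points lie above oocyte points in the H3.3A, H2A.Z, CENP-A, H2A and H2B 3 panels and below them in the H2A.V and H1.0-B panels, while the points of H1.10 overlap in the P females.

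CENP-A marks the centromere, where the kinetochore is built. The gene LOC118233606 (chromosome 8, 53248389 to 53252567) had 569.7, 395 and 457 normalized counts in oocytes before DHP and 1935, 2112 and 2249 in eggs after DHP. In the P females the values were 369, 457 and 251 and 1633, 2563 and 2964. It rose after each steroid, by 2.07 ± 0.31 (edgeR, adjusted p = 0.00289) and 2.71 ± 0.33 (edgeR, adjusted p = 0.000134) on the log2 scale, with no overlap between the groups. Without library 7, 11 or 12 the call after DHP was lost (edgeR, adjusted p 0.0139 to 0.0173).

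Of 4 histone genes whose product names do not start as the rule asks, macro-H2A.2 rose in both treatments and macro-H2A.1 fell after P. Macro-H2A is a large H2A variant known from inactive chromatin in mammals. LOC118217642, macro-H2A.2, had 259, 208 and 143 normalized counts in oocytes before DHP and 1969.9, 1431 and 1402 in eggs after DHP, at a log2 fold change of 2.91 ± 0.37 (edgeR, adjusted p = 0.00196), and 3.04 ± 0.27 after P (edgeR, adjusted p = 3.13e-05). LOC118236388, macro-H2A.1, had 21.9, 15.1 and 40.3 in oocytes before P and 0, 1.22 and 0 in eggs after P (edgeR, adjusted p = 0.00163), and it did not pass after DHP (edgeR, adjusted p = 0.0633). With so few counts in eggs after P, it was tested there only through its oocytes and could not be called higher. The 2 late histone H2A.2.2 genes had at most 11.7 normalized counts in any library.

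A pair of neighbouring genes on chromosome 9 held the largest fragment counts of all 99, with no scaling for gene length. LOC118235662, a histone H2A (23680951 to 23681964), and LOC118235663, histone H2B 3 (23682123 to 23683174), are 158 bases apart, outside the arrays. The H2A gene had 10135, 13418 and 14959 normalized counts in oocytes before DHP and 18955, 36159 and 25045 in eggs after DHP. In oocytes before P it had 11252, 9819 and 14061 and in eggs after P 22243, 31309.6 and 32830.2. H2B 3 went from 8176, 12191 and 14201 to 19465, 38229.7 and 29223 after DHP. It went from 9242, 7595 and 13405 to 20927, 32015 and 33701 after P.

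Every egg library stood above every oocyte library for both genes. Both rose after P, H2A by 1.28 ± 0.25 (edgeR, adjusted p = 0.00179) and H2B 3 by 1.50 ± 0.29 (edgeR, adjusted p = 0.00173), and neither passed after DHP, at 0.98 ± 0.31 (adjusted p = 0.0342) and 1.25 ± 0.33 (adjusted p = 0.0183). With the libraries paired as a replicate block, H2B 3 passed after DHP at 1.24 (edgeR, adjusted p = 0.00817). It also passed after DHP with DESeq2 (adjusted p = 0.00388) and with no filter on low counts (edgeR, adjusted p = 0.00612). In 1 fit of all 12 libraries both genes passed after DHP, H2A at 1.03 and H2B 3 at 1.30 (edgeR, adjusted p = 0.00928 and 0.00548). Scaled by total counts, both lost the call after P, at 0.52 (edgeR, adjusted p = 0.0601) and 0.74 (edgeR, adjusted p = 0.0292), and H2B 3 lost it without library 1 (1.40, edgeR, adjusted p = 0.0102). The ratio of H2B 3 to H2A fragments, which no scaling of libraries can move, was 0.774 to 0.953 in the 6 oocyte libraries and 0.941 to 1.17 in the 6 egg libraries. It was higher in the egg library than in the oocyte library of 6 of 6 pairs.

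Linker histone H1.0-B, a replacement H1 known from cells that have stopped dividing, fell the most of the histone-named genes tested. LOC118216562 (chromosome 2, 43794565 to 43796064) had 3049.7, 1496 and 953 normalized counts in oocytes before DHP and 14.3, 55.2 and 42.3 in eggs after DHP. Before P it had 1220.3, 1728 and 1353, and after P 14.96, 2.44 and 17.3. The log2 fold change was -5.69 ± 0.66 after DHP (edgeR, adjusted p = 0.00184) and -6.98 ± 0.55 after P (edgeR, adjusted p = 1.89e-05), which is 51.7-fold and 126-fold lower, and no egg library overlapped an oocyte library. Without library 12 the gene just missed the threshold after DHP (edgeR, adjusted p = 0.0101). Among oocytes before DHP it was highest in library 3 and lowest in library 11. In libraries 3, 7 and 11 the smooth muscle genes summed to 5222, 679 and 888 normalized counts, also highest in library 3. The follicle cell genes summed to 4901, 9689 and 6502 there, lowest in library 3. In oocytes before P, libraries 1, 5 and 9, smooth muscle genes summed to 1143, 2378 and 3041. Follicle cell genes summed there to 10918, 10222 and 13737. Follicle cell genes fell with H1.0-B in both treatments. After DHP 7 of 10 tested fell, where 6.22% of all genes fell, and after P 10 of 12, where 22.7% fell. The 1 that rose after P was LOC118214003 of the 3 beta-hydroxysteroid dehydrogenase family, named after its values were seen. The part of follicle and vessel cells in the fall of H1.0-B was not tested.

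H1.10, the other strongly counted linker histone gene (LOC118211181, chromosome 13, 24307745 to 24309089), passed the test in neither treatment. It had 2588, 2504 and 2083 normalized counts in oocytes before DHP and 2083, 2069 and 1028 in eggs after DHP, and 2450.0, 1967 and 2424 and 1436, 826 and 1997 in the P females. The groups overlapped in the P females, and its log2 fold changes of -0.55 ± 0.33 and -0.70 ± 0.32 did not pass (edgeR, adjusted p = 0.225 and 0.084). Scaled by total counts it was lower after P, at -1.45 (edgeR, adjusted p = 0.00333). Of the H1 fragments, H1.0-B made 29.9 to 49.8% in oocyte libraries and 0.244 to 3.54% in egg libraries, and H1.10 made 42.3 to 65.3% and 82.9 to 94.04%. Of the 6 H1 genes tested, 1 was lower after DHP and 2 were lower after P, beside 6.22% and 22.7% of all genes, with median log2 fold changes of -1.29 and -0.63. The median after DHP was -0.37 without library 3, and that after P was -1.39 when scaled by total counts, -1.43 with no filter on low counts and -0.0655 with a minimum count of 50. The second was the array gene LOC118237177 (chromosome 10, 9413702 to 9415590), with 2 counts in eggs after P against 173 in oocytes before P, a ratio of 53.3 with a 95% counting interval of 14.5 to 444 (exact Clopper-Pearson, covering counting error only). Its call after P (edgeR, adjusted p = 0.00252) was lost without library 2, 5 or 6, at 0.0118 to 0.0124. After DHP LOC118237177 did not pass, at a log2 fold change of -3.84 (edgeR, adjusted p = 0.0276). DESeq2 and limma-voom called it lower after DHP (adjusted p = 0.00387 and 0.0074).

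Other genes that fell had few counts. A gene with few counts in eggs was tested only where its oocyte counts passed the filter, so it could be called lower but not higher. LOC118212323 (H2A-like, chromosome 14, 25562438 to 25562966) had 117, 47.3 and 74.03 normalized counts in oocytes before DHP and 5.95, 15.8 and 4.38 in eggs after DHP, with 90.01, 97.03 and 107 and 1.15, 2.44 and 5.76 in the P females. It fell by 3.25 after DHP (edgeR, adjusted p = 0.00908) and by 4.99 after P (edgeR, adjusted p = 0.000216) on the log2 scale. The call after DHP was lost with the libraries paired as a replicate block (edgeR, adjusted p = 0.0116) and without library 3, 4, 7, 11 or 12 (0.0221 to 0.0339).

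LOC118235553 encodes H2A.X, the variant phosphorylated at DNA breaks (chromosome 9, 19350914 to 19351620). It had 22.7, 12.5 and 78.7 normalized counts in oocytes before P and 0, 1.22 and 1.44 in eggs after P, 132 counts against 2, a ratio of 40.7 with a counting interval of 11.04 to 339. The call after P (edgeR, adjusted p = 0.00285) was lost without library 2, 6, 9 or 10, at 0.0101 to 0.0151. In the DHP females the groups overlapped, at 30.8, 25.7 and 44.6 and 3.57, 26.3 and 1.46, and egg library 8 reached the oocyte level (edgeR, adjusted p = 0.163).

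The only H3 gene tested between eggs and oocytes outside H3.3 and CENP-A, the array gene LOC118216310 (chromosome 17, 6766349 to 6767283), had 98 counts in oocytes before P and 1 in eggs after P, a ratio of 60.4 with a counting interval of 10.6 to 2409 (edgeR, adjusted p = 0.00137, lost without library 6 at 0.0105). It was not tested after DHP. No H4 gene was called, but few could be: of the 16, 1 was tested after DHP and 0 after P. The 1 tested after DHP, LOC118234371, had -1.79 ± 0.84 (edgeR, adjusted p = 0.125). The fall of these genes and the fall of follicle cell genes occurred in the same libraries, and the part of follicle cells in it was not tested.

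As fragments, histone genes made up a larger part of the egg libraries. They held 0.682, 0.710 and 0.738% of all counted fragments in oocytes before DHP, 1.16, 1.32 and 1.11% in eggs after DHP, 0.636, 0.596 and 0.682% in oocytes before P and 1.003, 1.21 and 1.26% in eggs after P. No egg library overlapped an oocyte library, and with 3 against 3 libraries the smallest p that an exact two-sided permutation test allows is 0.10. These shares do not depend on TMM, though they depend on what else a library held.

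The make-up of the histone fragments changed as well. H3.3 made 23.9 to 38.96% of them in oocyte libraries and 39.1 to 48.3% in egg libraries, and H1 made 6.43 to 12.6% and 0.710 to 1.88%. H2A.Z and H2A.V together made 5.81 to 9.23% and 9.81 to 15.4%. CENP-A made 0.531 to 1.18% in oocytes and 1.37 to 1.96% in eggs. The pair on chromosome 9 made 37.7 to 58.8% in oocytes and 32.6 to 48.1% in eggs, with overlap. Within the H3 family, H3.3 made 96.2 to 97.5% of its fragments in oocytes and 95.3 to 96.7% in eggs, with overlap. The 15 H3 genes made 0.0829 to 0.387% of that family in oocytes and 0.00715 to 0.0512% in eggs, with no overlap, and CENP-A made 2.16 to 3.42% and 3.28 to 4.66%, with overlap. These are shares of fragments after poly(A) selection, so they do not measure the make-up of all H3 mRNA. A share also falls where the other genes of the family rise. Summed, the 15 H3 genes had 16.2 to 40.1 normalized counts in oocytes before DHP and 21.4 to 27.7 in eggs after DHP, with overlap. In the P females they had 38.4 to 49.8 in oocytes and 3.45 to 24.5 in eggs. Array genes made 0.603 to 1.44% of the histone fragments in oocyte libraries and 0.164 to 0.221% in egg libraries. Their summed level differed less. It was 291 to 698 normalized counts in oocytes before DHP and 213 to 254 in eggs after DHP. In the P females it was 301 to 454 in oocytes and 199 to 334 in eggs, with overlap.

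**Figure D4:**
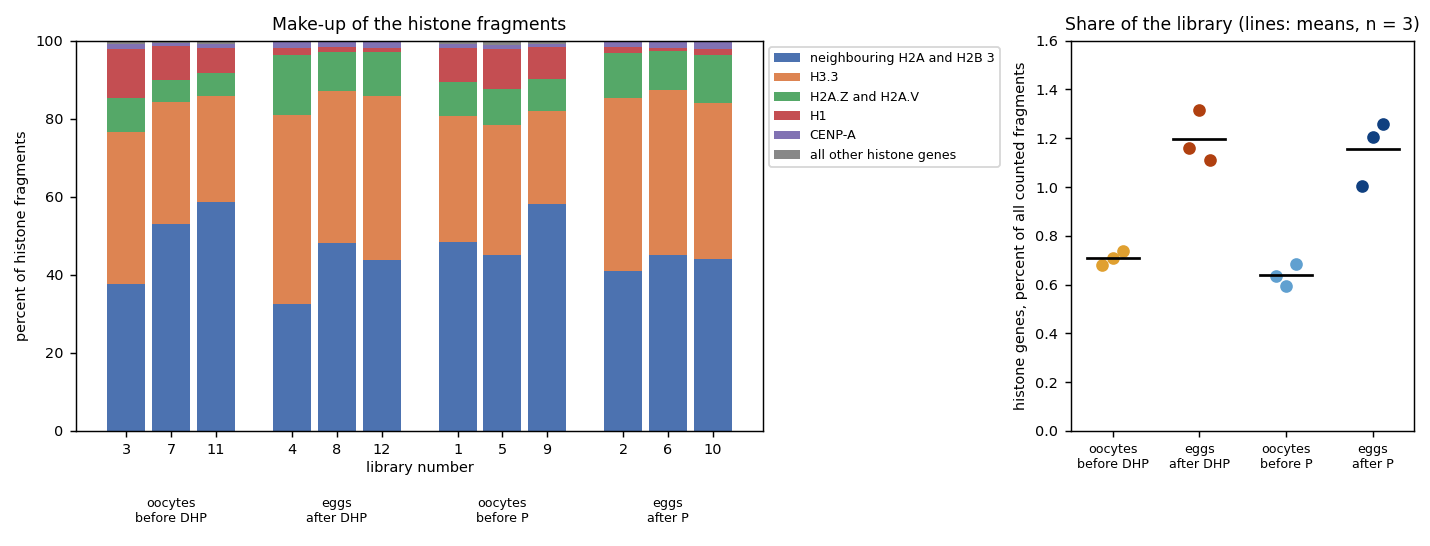
Left, the share of the histone fragments (vertical axis, percent) that each kind of histone gene made in each library, ordered by group, with no scaling for gene length. Right, the share of all counted fragments from histone genes in each library (points) with group means (lines, n = 3): egg libraries stand at 1.003 to 1.32% and oocyte libraries at 0.596 to 0.738%.

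The 2 genes that are not histones differed from each other. hinfp, the factor that turns on H4 genes (chromosome 9, 19399462 to 19406933), had 2391, 1681 and 1718 normalized counts in oocytes before P and 961, 392 and 389.9 in eggs after P, a log2 fold change of -1.75 ± 0.38 (edgeR, adjusted p = 0.00341). The call was lost without library 1, 6 or 10, at log2 fold changes of -1.58 to -1.51, and after DHP -0.82 ± 0.48 did not pass (edgeR, adjusted p = 0.211). It lies 47841 bases from the H2A.X gene. haspin, the kinase that marks histone H3 at mitotic centromeres, had -0.31 ± 0.45 and 0.01 ± 0.33 (edgeR, adjusted p = 0.613 and 0.98).

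Eggs after P were then compared with eggs after DHP, both at 2 mg per kg. The question was whether histone mRNA content differed with the steroid injected. This is 1 pair of compounds. Since DHP is made from P in the follicle, females given P may also have held DHP. Steroid levels were not available here, so the part of the added hydroxyl and the reduced ketone of DHP was not tested. Of 21 histone-named genes tested, edgeR called 0, as it did for all 13178 genes (0.0% called), and 0 of the 21 had an unadjusted p under 0.05, while 602 of all genes (4.57%) did. limma-voom and DESeq2 called 0 of the 21, while of all 13178 genes limma-voom called 0 and DESeq2 called 9. Every 95% interval of the difference from limma-voom held 0, and for 10 of the 21 genes it lay within a 2-fold difference in either direction.

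For the strongly counted genes the intervals were narrow. On the log2 scale, P minus DHP, they ran from -0.51 to 0.28 for LOC118219452 (H3.3A), -0.23 to 0.61 for LOC118216390 (H3.3A) and -0.49 to 0.39 for LOC118231304 (H2A.Z). The H2A of chromosome 9 had -0.29 to 0.65, H2B 3 had -0.45 to 0.57 and CENP-A had -0.41 to 0.79. For the genes at low level in eggs the comparison could not show much: H1.0-B had -3.85 to 0.31 and the H2A.V gene LOC118212478 had -4.07 to 0.90. Raw counts of genes too low to be tested were 2 after P and 24 after DHP for H2A.X, and 1 and 8 for the H3 gene LOC118216310. Most of the 24 came from library 8, with 26.3 normalized counts against 3.57 and 1.46 in libraries 4 and 12. Groups did not overlap for 1 of the 21 genes, the array gene LOC118216318 (H1-like), against 9.36% of all genes.

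**Figure D5:**
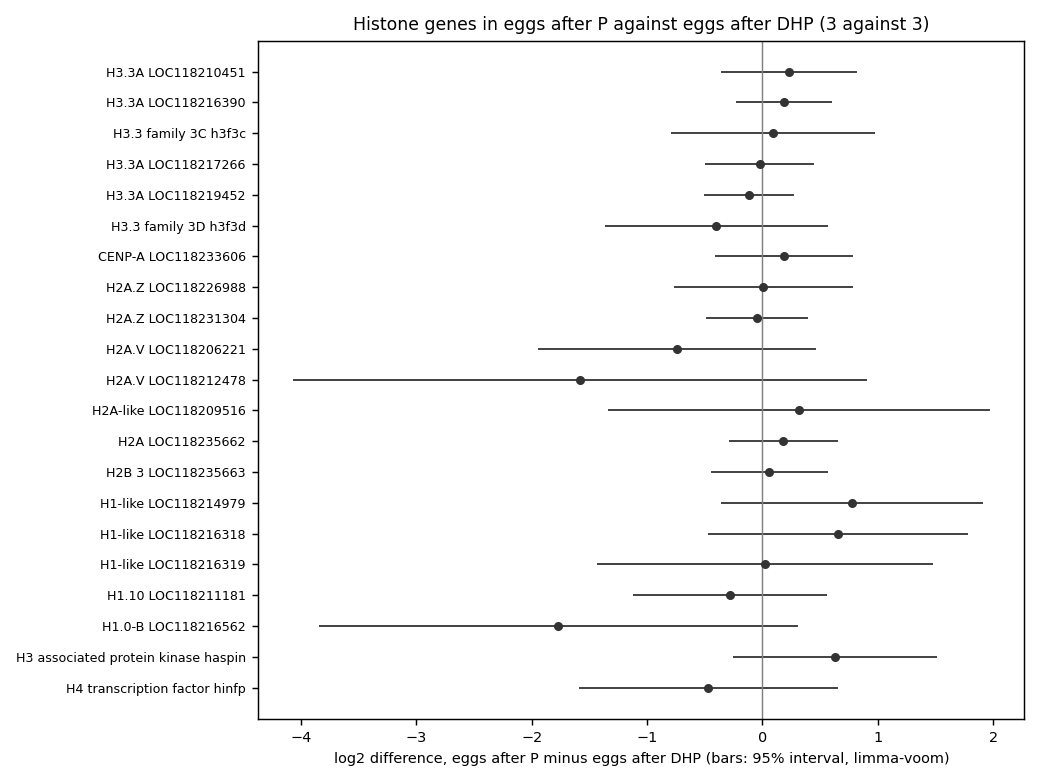
Log2 difference between eggs after P and eggs after DHP (horizontal axis, P minus DHP) for the 21 histone-named genes tested, with 95% intervals from limma-voom (3 against 3 libraries). Every interval holds 0, and those of the strongly counted H3.3A, H2A.Z, H2A and H2B 3 genes are the narrow ones.

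The change from oocyte to egg was not called different between the treatments for any of 31 genes tested. This held for edgeR with or without the libraries paired as a replicate block, for limma-voom and for DESeq2. Of all 16891 genes, DESeq2 called 3 and the other fits named called 0 (0.0%). In edgeR 4 of the 31 had an unadjusted p under 0.05, beside 4.14% of all genes: LOC118216310 (H3), LOC118235553 (H2A.X), LOC118212478 (H2A.V) and LOC118214979 (H1-like). None passed the correction, and the calls made after P alone do not show a difference between the steroids. Oocytes before DHP and before P, sampled from other females before either injection, differed in 0 of 31 genes (0.0% of all 16153 genes). At an unadjusted p under 0.05 there were 0 of the 31, beside 3.06% of all genes. limma-voom and DESeq2 also called 0 of the 31, while DESeq2 called 10 of all genes. Groups did not overlap for 1 of the 31, the H3.3A gene LOC118219452, against 7.84%.

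Genes listed here for a part in making histone mRNA, which need not be their only part, rose where they were called after DHP. After P they moved both ways. Of 17 listed, hinfp among them, 16 were tested, and 4 rose and 0 fell after DHP (median log2 fold change 0.84), while 8 rose and 5 fell after P (median 0.97). Of all genes, 7.35% rose and 6.22% fell after DHP, and 17.9% and 22.7% after P. The 4 with the smallest p were the same after both steroids: srrt, with 2.43 ± 0.31 and 2.94 ± 0.24, the cap-binding subunit genes ncbp2, with 3.00 ± 0.48 and 2.70 ± 0.29, and LOC118226728, with 3.15 ± 0.60 and 3.69 ± 0.31, and casp8ap2, which is needed for histone gene transcription in mammalian cells, with 1.94 ± 0.30 and 2.34 ± 0.25. The stem-loop binding proteins and the U7 proteins lsm10 and lsm11 were singled out after their values were seen. slbp, which binds the end of replication-dependent histone mRNAs in dividing cells, had 4126, 3636 and 2092 normalized counts in oocytes before P and 728, 377 and 545 in eggs after P, at -2.60 ± 0.35 (edgeR, adjusted p = 0.000228). slbp2, whose counterpart in Xenopus is the oocyte form, had 1.49 ± 0.26 (edgeR, adjusted p = 0.000885). After DHP they had -1.28 ± 0.34 and 0.99 ± 0.31, which did not pass (edgeR, adjusted p = 0.0186 and 0.0346). lsm10 and lsm11, parts of the U7 particle that cuts these mRNAs, fell after P and did not pass after DHP. lsm10 had 54.8, 31.5 and 62.8 normalized counts in oocytes before P and 0 in every library of eggs after P (edgeR, adjusted p = 0.000517), and lsm11 had 53.2, 72.1 and 29.98 and 2.30, 4.88 and 1.44 (edgeR, adjusted p = 0.00113). At such counts in eggs, both were tested only through their oocytes and could be called lower but not higher. In the DHP females lsm10 had 17.7, 55.5 and 21.03 in oocytes and 0, 11.8 and 0 in eggs (edgeR, adjusted p = 0.0793), and lsm11 had 30.1, 53.5 and 21.9 and 5.95, 7.89 and 5.83 (edgeR, adjusted p = 0.0215).

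Histone chaperones, which carry histones to DNA, mostly rose where they were called. Of 45 listed, 43 were tested, and 8 rose and 1 fell after DHP (median log2 fold change 0.59), while 16 rose and 5 fell after P (median 0.75). npm3, of the nucleoplasmin family, had 193, 152 and 159 normalized counts in oocytes before P and 2062, 3039.7 and 2962 in eggs after P. It rose by 3.39 ± 0.49 after DHP and 3.98 ± 0.28 after P (edgeR, adjusted p = 0.00257 and 1.45e-05). nap1l4a, an H2A and H2B carrier, had 2.33 ± 0.33 and 2.62 ± 0.24, and npm1a had 1.83 ± 0.31 and 2.01 ± 0.22. LOC118219552, an asf1b gene whose product carries H3 and H4, fell in both treatments, by 1.84 and 2.64 (edgeR, adjusted p = 0.00372 and 5.15e-05). Among the carriers of the variants described above, anp32e, which takes H2A.Z off chromatin in mammals, rose by 1.74 ± 0.38 and 2.09 ± 0.31, and daxx, a carrier of H3.3, rose after P by 1.35 ± 0.36 (edgeR, adjusted p = 0.00897), both named after their values were seen. They do not stand for the other listed carriers of these variants. Listed chaperones had log2 fold changes down to -2.07 after DHP and -3.32 after P. Of all genes tested, 13.6% were called after DHP, 7.35% higher and 6.22% lower. After P 40.6% were called, 17.9% higher and 22.7% lower.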

How the data were processed

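Per the labels and the study's methods, poly(A) RNA of the 12 samples was sequenced as stranded libraries with 2 x 150 base reads. The authors deposited whole-number counts of fragments per gene, 1 table for each comparison; the submitters' processing notes name TopHat2 2.0.13, SAMtools 1.2, HTSeq 0.6.1p1 and DESeq. Fold changes and p-values of the authors in these tables were not used. Reads of near-identical genes may be split or dropped, with a strand setting not given in the sources used here.

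Groups came from the labels. Genes were tested with the edgeR 4.0.16 quasi-likelihood test (R 4.3.3), TMM scaling, filterByExpr (minimum count 10, minimum total 15) and Benjamini-Hochberg adjustment over all genes tested, 3 against 3 libraries, two-sided, at an adjusted p under 0.01. Fold changes carry an SE derived from the test, as the absolute log2 fold change divided by the square root of its F statistic. Intervals came from limma-voom (limma 3.58.1), and DESeq2 1.42.0 was an alternative, beside RLE and total-count scaling, other filters, 1 fit of all 12 libraries, a replicate block and leaving out each library. The scripts were tested on simulated data. Total counts of 6612347 to 9903122 per library set the precision, and counting intervals cover counting error only.

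Values are given for every histone-named gene whose mean level reached 100 normalized counts or that had a call in any comparison, and for the 2 that are not histones. Of partner lists, up to 4 genes with the smallest p are named, and any other is said to be chosen after its values were seen. The genes and lists were chosen with earlier results of these data known. Neighbouring library numbers in the column names were set as pairs of oocytes and eggs (1 and 2, 5 and 6, 9 and 10, 3 and 4, 7 and 8, 11 and 12). Deviations from group means correlated at 0.262 to 0.389 within these pairs and at -0.278 to -0.0736 in other combinations over 16891 genes. Deviations within a group sum to 0, so positive values in the pairs push the others negative, and the negative range adds no support of its own. The libraries were taken as pairs from these correlations, not from a label. All 99 gene IDs were found in the RefSeq annotation of fAngAng1.pri, which gave the coordinates.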

Additional observations from a re-analysis of the deposited data

How the results depend on the processing

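After DHP the number of histone-named genes called was 8. It was 14 at an adjusted p under 0.05 and 13 with DESeq2, where 34.0% and 29.5% of all genes were called, and 0 to 9 with 1 library left out. After P it was 16 and 12 to 15 with 1 library left out, and no alternative moved it by more than 1.5 times. The libraries were also paired, by the inferred pairs, as a replicate block: 8 genes were then called after DHP and 16 after P, with H2B 3 gained and LOC118212323 lost after DHP and no other change of call. Scaling by total counts lowered the median log2 fold change of H3.3 genes to 0.69 after DHP and 0.86 after P, of H2A.Z and H2A.V genes to 1.17 and 0.80, and of H1 genes after P to -1.39. With no filter on low counts the median after P was 1.19 for H3.3 and -1.43 for H1, over more genes, and with a minimum count of 50 it was -0.0655 for H1, over 4 genes. The H1 median after DHP ran from -1.70 to -0.37 with 1 library left out. For single genes, 1415 values kept their side of the threshold, 43 lost a call and 18 gained one. No called value changed sign, and 72 values that were not called did, such as those of h3f3d and haspin. For histone-named genes, eggs after P against eggs after DHP, oocytes against oocytes and the interaction gave 0 calls under every alternative run. Of all genes, DESeq2 called 9, 10 and 3 in these comparisons, in that order. With no filter on low counts edgeR called 63 of all 22130 genes between the eggs. Leaving out library 6 gave 2 calls over all genes between the eggs, and leaving out library 5 gave 2 between the oocytes. Where no cause is given, the cause was not tested. Depth limits what can be tested in 71 of the 99 genes, which had under 100 counts over all libraries.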
